A study of Caenorhabditis elegans with 14 samples.

Results

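The subject is how far siRNAs and piRNAs responded differently to the mutation pash-1(ram33[G179R]) at 25 °C and at 20 °C. The members are all features that the deposited tables class as ALG Class 26G (1399), ERGO Class 26G (123), CSR Class 22G (3608), WAGO Class 22G (2215) or piRNA (15363). They make up 22708 of the 23869 listed features. The measure is the interaction, the log2 difference of mutant minus wild-type at 25 °C minus the same difference at 20 °C. A positive interaction means that the difference was more positive at 25 °C. All 14 libraries of the series entered it. The rule for the members uses no measured value, but it was chosen with earlier results of these data known.

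Small RNAs were sequenced from whole gravid hermaphrodite adults of Caenorhabditis elegans. There were 4 libraries of pash-1(ram33[G179R]) mutants (strain TAM93) and 4 of wild-type (N2) animals kept at 25 °C for 54 h from synchronized L1 larvae, and 3 of mutants and 3 of wild-type kept at 20 °C for 72 h. All animals grew on NGM plates with E. coli OP50. The allele, a glycine to arginine change in the Pasha protein PASH-1 (G179R), is from an EMS screen and was outcrossed to N2, and mutants at both temperatures carry it. Temperature, growth time and the table in which the values were normalized change together, so their parts in the interaction cannot be told apart. Values are rpm, reads scaled to library size, in which a feature is read relative to the rest of its library. The rpm of listed features added up to between 812424 and 861432 in the 25 °C mutants, with 898606 to 903722 for their wild-type, and to between 862407 and 879385 in the 20 °C mutants, with 899208 to 907393 for theirs. In whole animals, fewer cells of a type and less RNA per cell cannot be told apart. The paper reports fewer progeny and frequent sterility in these mutants at the higher temperature. Most looked near normal there, but some had protruding vulvas or had burst. It adds that developmental defects limit what can be read from single miRNAs there. Whether germline and embryo content was alike in both strains was not tested.

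Several small RNA pathways share the germline of the worm. 26G siRNAs start with Dicer and the RNA-dependent RNA polymerase RRF-3. Those bound by the Argonautes ALG-3 and ALG-4 arise during spermatogenesis, and those bound by ERGO-1 arise in oocytes and embryos. Both can lead to 22G siRNAs, which carry a 5′ triphosphate, are made by RNA-dependent RNA polymerases and are bound by CSR-1 on expressed germline genes or by the WAGO Argonautes on silenced ones. piRNAs are separate transcripts, mostly from chromosome IV, and are bound by PRG-1. None of these classes needs the Microprocessor of PASH-1 and DRSH-1, which cuts primary miRNAs. The protocols name no step that removes 5′ triphosphates before ligation, so the level of 22G siRNAs against the other classes depends on library chemistry as well.

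The ALG class had the largest difference between the temperatures. Its summed rpm was 2014.7, 2597.9, 2541.6 and 2216.1 in mutants and 315.58, 252.98, 232.58 and 213.25 in wild-type at 25 °C. At 20 °C it was 575.11, 532.42 and 477.25 in mutants and 368.49, 246.0 and 255.63 in wild-type. Every mutant library lay above every wild-type library at both temperatures. The mutant mean was 9.24 times the wild-type mean at 25 °C and 1.82 times at 20 °C, and the fold differed by 5.03 times between them (log2 2.33, permutation test over 1225 assignments, p = 0.000816, adjusted p = 0.00204 over 5 classes). The first p is the smallest that this test can give.

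piRNAs were the other class with a positive interaction. They summed to 79910 ± 5750 rpm in mutants and 41190 ± 2280 in wild-type at 25 °C (SD, n = 4 each), and to 94490 ± 6370 in mutants and 77060 ± 4830 in wild-type at 20 °C (SD, n = 3 each). The ratio of mutant to wild-type means was 1.94 at 25 °C and 1.23 at 20 °C (interaction 0.66, permutation test, adjusted p = 0.00204). Across the separately normalized tables, the wild-type level at 25 °C was 0.535 times that at 20 °C, whereas the mutant level at 25 °C was 0.846 times that at 20 °C.

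The CSR class turned round on summed rpm as deposited, but not as a share of the 5 classes. Its share was lower in every mutant library at 25 °C (log2 difference -0.97). At 20 °C the shares of both strains overlapped (log2 difference -0.07). Its sum was 13430 ± 795 rpm in mutants and 16040 ± 1140 in wild-type at 25 °C (SD, n = 4 each), with every mutant library below every wild-type library. At 20 °C it was 15600 ± 953 in mutants and 13410 ± 732 in wild-type (SD, n = 3 each), with every mutant library above (interaction -0.47, permutation test, adjusted p = 0.00204). On summed rpm, the ERGO class was higher in every mutant library at both temperatures, by 1.25 times at 25 °C and 1.71 times at 20 °C (interaction -0.46, permutation test, adjusted p = 0.00204). The WAGO sum was 1.20 times higher in mutants at 25 °C and 1.15 times at 20 °C, with an interaction of 0.07 that did not pass (permutation test, adjusted p = 0.451). Within a temperature, exact tests cannot give less than 0.029 with 4 libraries a strain or 0.1 with 3, and all 5 classes gave those values on summed rpm.

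**Figure D1:**
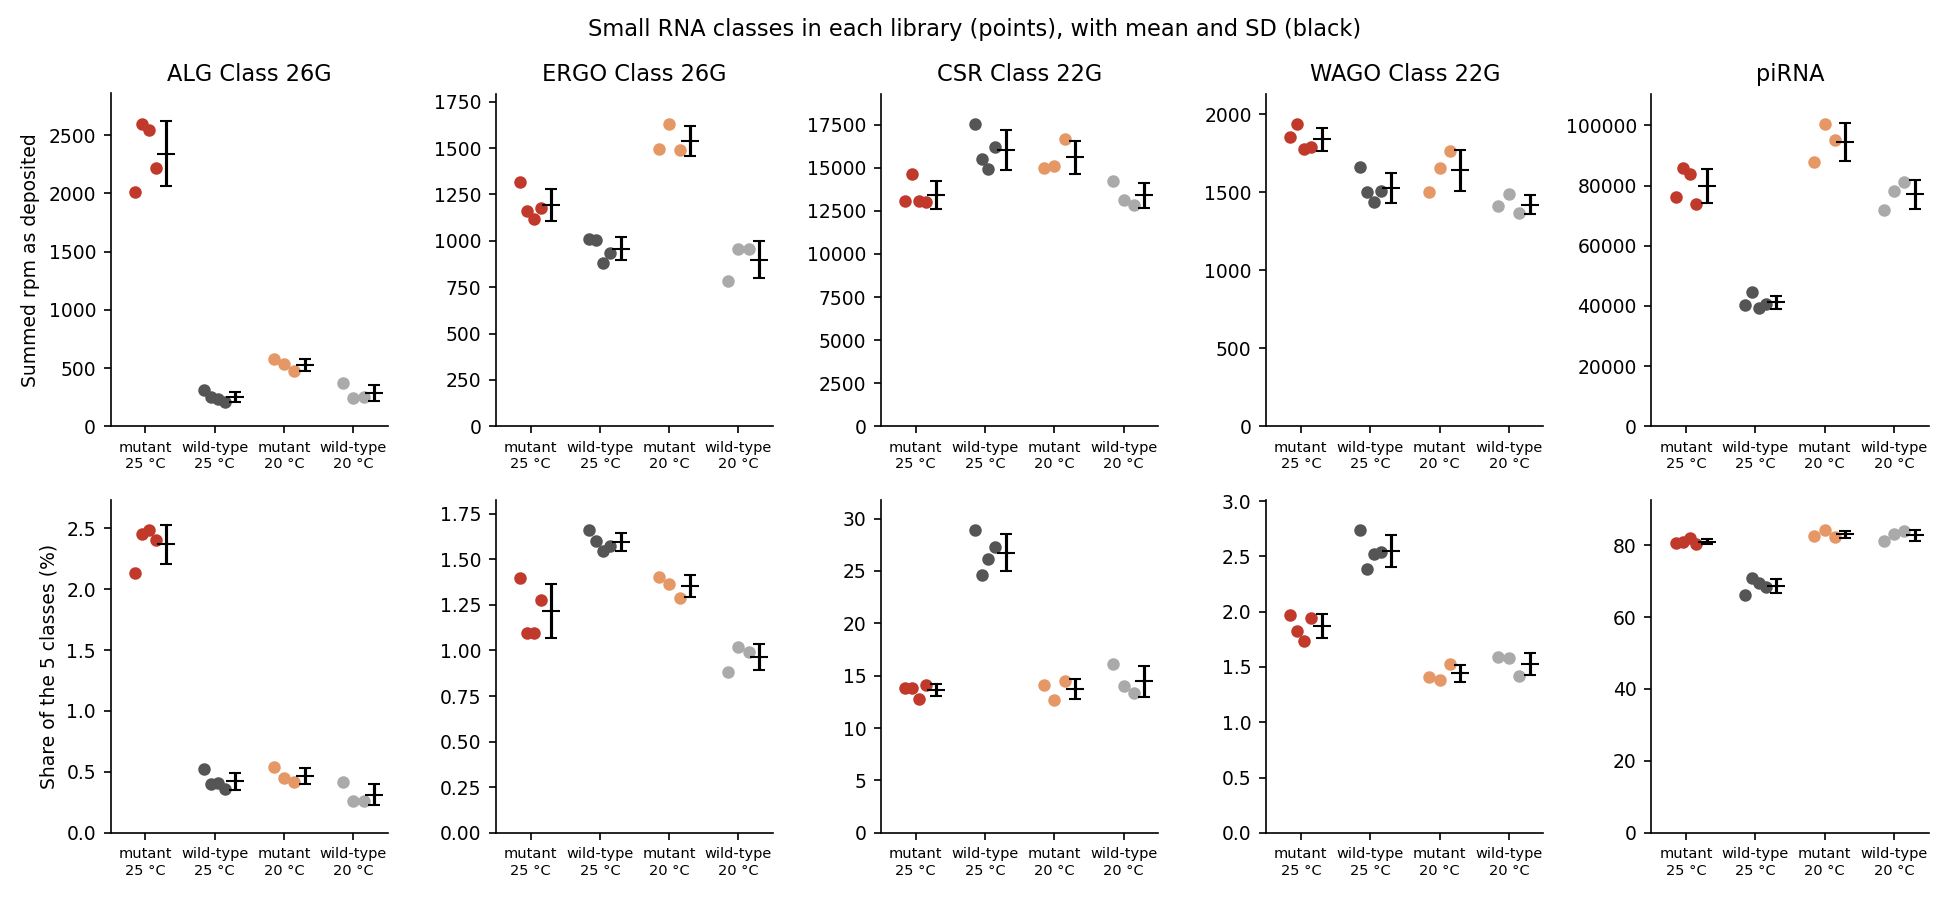
Summed rpm as deposited (upper row) and share of the summed rpm of the 5 classes in percent (lower row) for each class, by strain and temperature. Points are libraries and black marks are means with SD (n = 4 at 25 °C, n = 3 at 20 °C). ALG-class sums were 2014.7 to 2597.9 rpm in 25 °C mutants and at most 575.11 rpm in any other library.

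Sums of rpm depend on what else is in a library, above all on the miRNAs. Shares among the 5 classes leave the miRNAs out, but each depends on the other classes, above all on piRNAs (66.2% to 84.2% of the 5-class sum). A ratio of 2 classes within a library depends on those 2 alone. The ALG share was 2.37 ± 0.158% in mutants and 0.4225 ± 0.0685% in wild-type at 25 °C, and 0.466 ± 0.0662% in mutants and 0.314 ± 0.0885% in wild-type at 20 °C. The CSR share was 13.6 ± 0.59% in mutants and 26.75 ± 1.79% in wild-type at 25 °C, against 13.7 ± 0.952% in mutants and 14.45 ± 1.45% in wild-type at 20 °C. The CSR share of the 25 °C wild-type libraries thus stood apart from the other groups. The ERGO share was 1.22 ± 0.148% in mutants and 1.60 ± 0.0481% in wild-type at 25 °C, and 1.35 ± 0.06% in mutants and 0.963 ± 0.0705% in wild-type at 20 °C. The WAGO share was 1.87 ± 0.108% in mutants and 2.55 ± 0.144% in wild-type at 25 °C, and 1.44 ± 0.0773% in mutants and 1.53 ± 0.0981% in wild-type at 20 °C. At 25 °C both shares were lower in every mutant library, whereas both sums were higher.

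All 5 shares had an interaction that passed: 1.90 for ALG, 0.23 for piRNAs, -0.36 for WAGO, -0.89 for ERGO and -0.90 for CSR on the log2 scale (permutation test, adjusted p = 0.00102, and 0.00163 for WAGO). The WAGO interaction was 0.13 and did not pass as a share of all listed features (adjusted p = 0.207). Of the 10 ratios of 2 classes, 9 passed. The ratio of ALG to CSR changed most, 11.1 times higher in mutants at 25 °C and 1.59 times at 20 °C (interaction 2.80). The ratio of CSR to piRNA was 0.432 times the wild-type ratio at 25 °C and 0.948 times at 20 °C (interaction -1.13, adjusted p = 0.00102 for both, permutation test). The ratio of ERGO to CSR was 1.49 times higher in mutants at 25 °C and 1.48 times at 20 °C, and its interaction was 0.01 (permutation test, adjusted p = 0.944), from -0.07 to 0.15 when 1 library was left out.

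More ALG loci were detected as well. The number of ALG features at or above 1 rpm in a library was 470 to 578 in 25 °C mutants, against 22 to 43 in 25 °C wild-type, and 90 to 124 in 20 °C mutants, against 29 to 54 in 20 °C wild-type (interaction 436.1 features, permutation test, adjusted p = 0.00204). Of the 1399 loci, 436 had a group mean of at least 1 rpm in 25 °C mutants only. The 10 most abundant ALG loci held 15.8 ± 0.393% of the class in mutants and 27.2 ± 2.34% in wild-type at 25 °C, against 22.2 ± 2.43% in mutants and 22.9 ± 1.17% in wild-type at 20 °C (interaction -10.73 percentage points, permutation test, adjusted p = 0.00204). For CSR the number at or above 1 rpm was 2443 to 2529 in 25 °C mutants, against 2632 to 2746 in 25 °C wild-type, and 2568 to 2649 in 20 °C mutants, against 2398 to 2512 in 20 °C wild-type (interaction -351 features, adjusted p = 0.00204, permutation test). For piRNAs it was 3664 to 3979 in 25 °C mutants, against 2590 to 2838 in 25 °C wild-type, and 3872 to 4098 in 20 °C mutants, against 3121 to 3548 in 20 °C wild-type (interaction 516.4 features, permutation test, adjusted p = 0.0122). The ERGO and WAGO numbers had interactions of 0.17 and 26.5 features that did not pass. A number above a fixed rpm moves with the class total.

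Single features were tested with limma on log2(rescaled rpm + 0.1), where rpm were rescaled within each table by size factors from the median of ratios. A fold change on this scale is understated for features near 0.1 rpm. The fit held 6396 features of any class whose mean reached 1 rpm in both tables, and p-values were adjusted over the 6396 by the Benjamini-Hochberg method, with a threshold of 0.05. Over all features 38.0% passed, 15.5% with a more positive and 22.5% with a more negative difference at 25 °C, and the median interaction was -0.08. The members tested numbered 6037. They were 56 ALG, 45 ERGO, 2495 CSR, 308 WAGO and 3133 piRNA features, and the remaining members were too low.

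The classes separated by direction. Of the tested ALG features 51 of 56 had a more positive and 1 a more negative difference at 25 °C, with a median interaction of 2.08. Many of these 56 passed the filter through the 25 °C mutants, which favours a positive interaction. Among piRNAs 900 were more positive and 9 more negative (median 0.39). No CSR feature was more positive and 1205 were more negative (median -0.70), and at an unadjusted p under 0.05 these numbers were 0 and 1496. No ERGO feature was more positive and 23 were more negative (median -0.59), with 0 and 29 unadjusted. In the WAGO class 5 were more positive and 31 more negative (median -0.15). Because the rescaling sets the zero, these counts depend on it, whereas the order of the class medians does not.

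**Figure D2:**
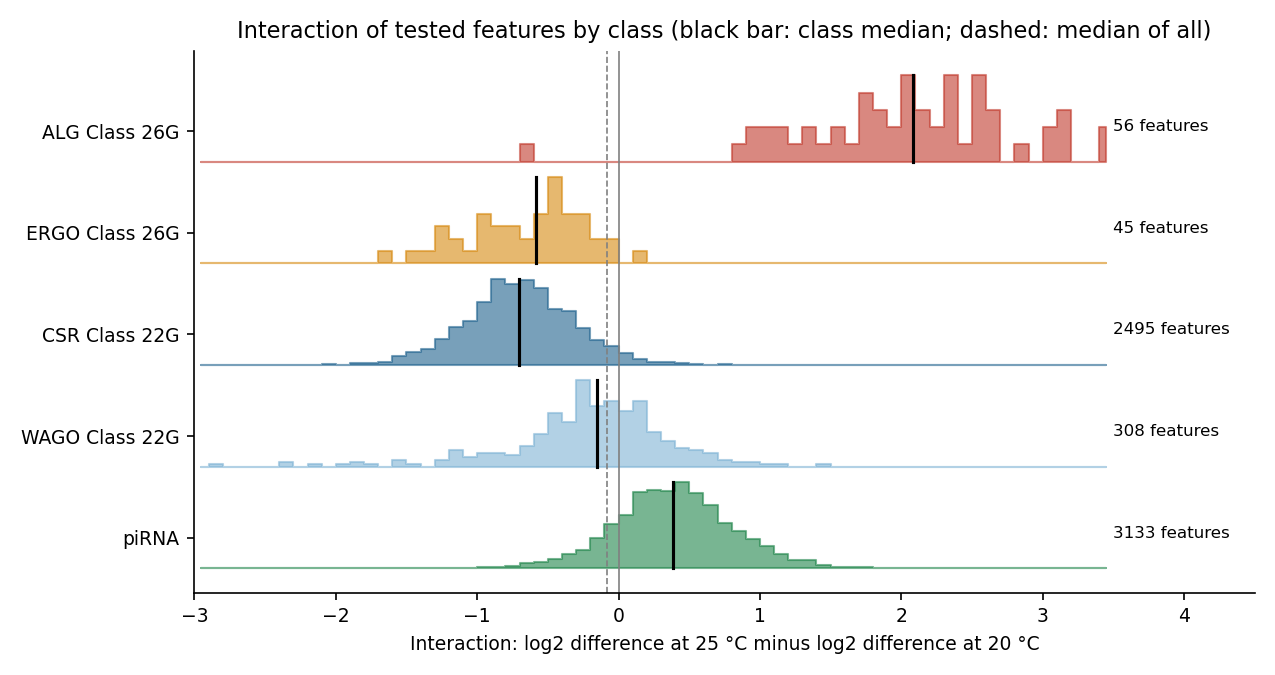
Interaction of each tested feature by class on the log2 scale, as histograms each scaled to its own peak. Black bars are class medians, from 2.08 for ALG to -0.70 for CSR, and the dashed line is the median of all 6396 features, -0.08.

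The 2 differences behind each interaction were of different kinds. Within a temperature, 30.8% of all features were higher and 41.5% lower in mutants at 25 °C, and 3.0% higher and 4.61% lower at 20 °C. Among them were 55 ALG features higher at 25 °C and 15 at 20 °C, 2234 CSR features lower at 25 °C and 44 at 20 °C, and 1856 piRNAs higher at 25 °C and 105 at 20 °C. Strains did not overlap at 25 °C in 51 of the 51 more positive ALG, 1154 of the 1205 more negative CSR and 772 of the 900 more positive piRNA features, beside 61.2% of all features. The features in these counts were chosen by the interaction test on the same libraries, which itself favours separated strains. The counts are thus no independent evidence beside the share of all features. For ALG features the filter favours such separation as well, as many passed it through the 25 °C mutants. At 20 °C 23.2% of all features did not overlap.

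ALG features had a median difference of 2.68 at 25 °C and 0.57 at 20 °C, and 46 of the 51 more positive ones were above 0 at both temperatures. CSR features had medians of -0.85 at 25 °C and -0.15 at 20 °C, the second of which was 0.205 on rpm as deposited. Of the 1205 more negative ones, 682 were below 0 at both and 523 below 0 at 25 °C and above 0 at 20 °C. ERGO features had medians of -0.25 at 25 °C and 0.39 at 20 °C (0.34 and 0.76 on rpm as deposited). They thus crossed 0 on rescaled rpm, where 21 of the 23 calls had opposite signs, and not on rpm as deposited. WAGO features had medians of -0.37 at 25 °C and -0.22 at 20 °C (0.19 and 0.13 on rpm as deposited), and 24 of the 31 more negative ones had opposite signs. piRNAs had medians of 0.47 at 25 °C and 0.11 at 20 °C. Of the 900 more positive ones, 476 were above 0 at both temperatures and 407 above 0 at 25 °C and below 0 at 20 °C.

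**Figure D3:**
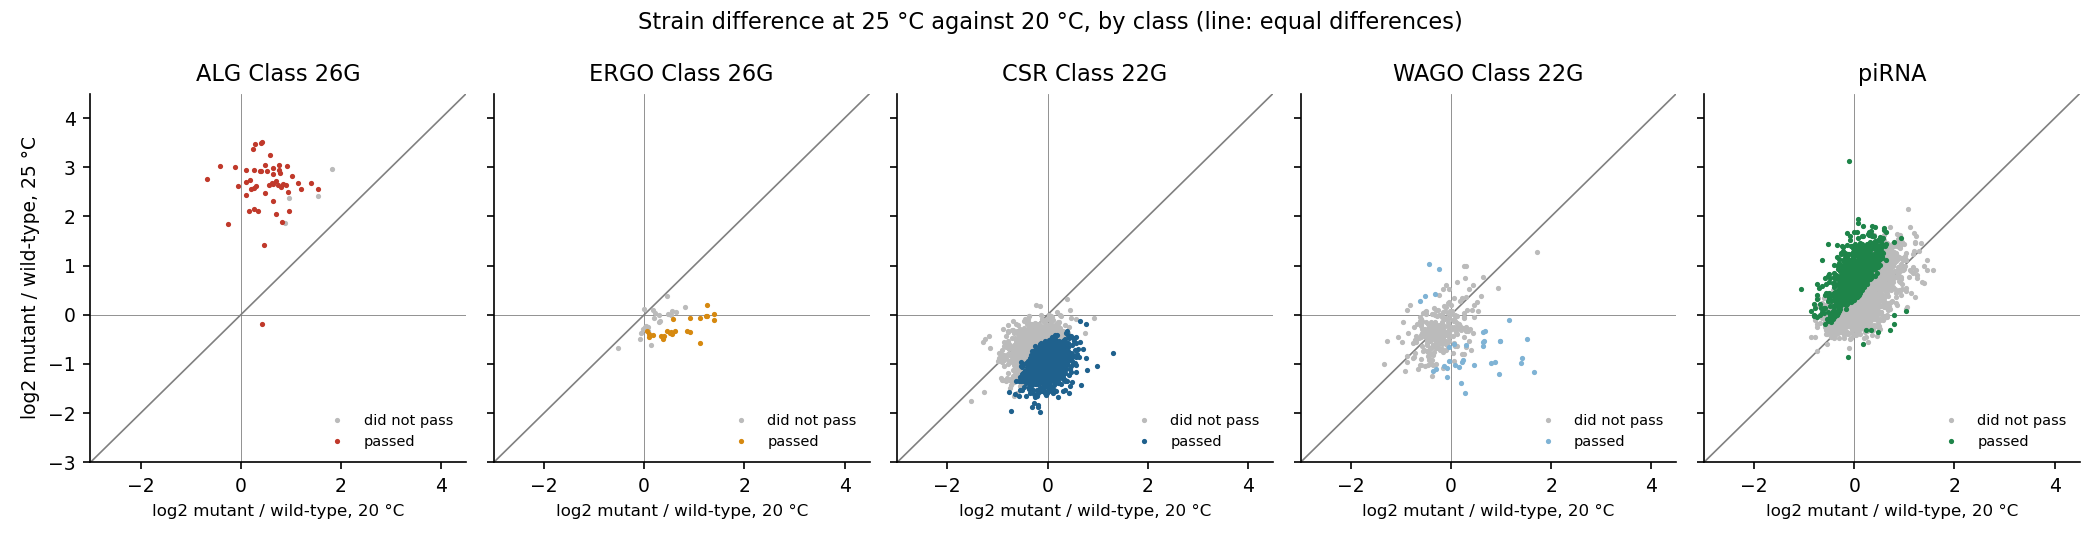
Log2 mutant over wild-type at 25 °C (vertical axis) against 20 °C (horizontal axis) for the tested features of each class. Colored points passed the interaction test and grey points did not. The line marks equal differences, and the ALG medians (2.68 at 25 °C and 0.57 at 20 °C) lie above it while the CSR medians (-0.85 and -0.15) lie below it.

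The tested ALG features are a small and selected share of their class. At 25 °C the mean of 1 rpm was reached by 536 of the 1399 loci in mutants and by 25 in wild-type, so many passed the filter through the mutants, and the class sums above are the measure over all members. Features were named by a fixed rule, which took the largest interactions past the threshold among features with a mean of at least 5 rescaled rpm and no overlap of the strains at 1 of the temperatures. By it, the 3 largest positive interactions in the ALG class belonged to Y39E4B.13, K11C4.1 and ZK666.8. Their means were 17.4, 21.3 and 19.9 rescaled rpm in 25 °C mutants and at most 3.58 in the other groups. They thus reached the mean of 5 through the 25 °C mutants. For these 3 the rule itself favours a positive interaction and separated strains at 25 °C. 26G siRNAs of Y39E4B.13 (chromosome III, 13091122 to 13093658 of the WBcel235 annotation) were at 16.2, 19.6, 17.2 and 16.6 rescaled rpm in mutants and 2.11, 1.55, 1.66 and 0.865 in 25 °C wild-type. At 20 °C they were at 3.18, 2.46 and 2.56 in mutants and 4.27, 2.20 and 1.14 in wild-type. The strains did not overlap at 25 °C and did at 20 °C. The log2 difference was 3.47 at 25 °C and 0.28 at 20 °C, an interaction of 3.19 (SE 0.389, limma, adjusted p = 3.04e-07).

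K11C4.1 (chromosome V, 6897000 to 6898497) had 18, 21.2, 22.2 and 23.9 rescaled rpm of 26G siRNAs in mutants and 2.51, 1.90, 1.76 and 1.74 in wild-type at 25 °C. At 20 °C it had 3.47, 2.86 and 4.41 in mutants and 4.06, 3.33 and 1.92 in wild-type. Only the 25 °C mutants were high (interaction 3.13, SE 0.286, limma, adjusted p = 1.29e-10). ZK666.8 averaged 19.9 ± 1.81 rescaled rpm in mutants and 2.06 ± 0.70 in wild-type at 25 °C (SD, n = 4 each), and 3.03 ± 0.279 in mutants and 2.16 ± 1.06 in wild-type at 20 °C (SD, n = 3 each), an interaction of 2.68 (limma, adjusted p = 2.18e-07).

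The most abundant ALG locus went the other way. Y57G11C.36, on chromosome IV, was at 42.3, 38.7, 35.2 and 38.4 rescaled rpm in mutants and 43.1, 44, 45.7 and 42.1 in wild-type at 25 °C. At 20 °C it was at 46.7, 46.5 and 52.2 in mutants and 37.3, 36.4 and 34.7 in wild-type. The strains overlapped at 25 °C, and all mutants were above all wild-type libraries at 20 °C (interaction -0.60, SE 0.134, limma, adjusted p = 0.000779). It was the only ALG feature with a more negative difference at 25 °C, and with size factors from the CSR class its interaction was 0.12 and did not pass.

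Sperm genes are the known targets of ALG-3 and ALG-4. The list of sperm genes, mostly msp, spe, ssp and nspd genes, held 63 ALG loci, and their 26G siRNAs summed to 70.6 to 99.4 rpm in 25 °C mutants, against 5.74 to 10.2 in 25 °C wild-type. At 20 °C they summed to 19.1 to 27.3 rpm in mutants, against 11.4 to 15.7 in wild-type. Strains did not overlap at either temperature. Each family was highest in 25 °C mutants. The 22 msp genes, which encode the cytoskeletal protein of crawling sperm, summed to 16 rpm in mutants and 1.74 in wild-type at 25 °C, against 6.35 and 3.6 at 20 °C. The 16 spe genes, needed for sperm development, summed to 23.8 rpm in mutants and 1.80 in wild-type at 25 °C, against 3.82 and 1.82 at 20 °C.

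Of these 63 loci 3 reached the filter and 2 passed with a more positive difference at 25 °C, ssp-16 and ssp-34. 26G siRNAs of ssp-16 were at 4.85, 7.82, 7.73 and 6.05 rescaled rpm in mutants and 0.673, 0.877, 1.38 and 0.865 in 25 °C wild-type. At 20 °C they were at 2.26, 3.26 and 1.48 in mutants and 1.78, 1.18 and 1.35 in wild-type. The mutants stood clear at 25 °C and overlapped wild-type at 20 °C (interaction 2.08, limma, adjusted p = 5.88e-05). spe-6, which encodes a casein kinase of sperm maturation, was under the filter at 20 °C. It averaged 6.37 rescaled rpm in mutants and 0.761 in wild-type at 25 °C and 0.994 in mutants and 0.589 in wild-type at 20 °C. The third tested locus, smz-1, had an interaction of 0.98 that did not pass.

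ERGO-class 26G siRNAs had a median difference of -0.25 at 25 °C and 0.39 at 20 °C, and the first was 0.34 on rpm as deposited. Many ERGO-1 targets are duplicated genes, so near-identical copies may share reads. Y116F11A.1 (chromosome V, 19730580 to 19732242) was at 58.4, 49.2, 46.8 and 46.3 rescaled rpm in mutants and 50.6, 51.6, 56.7 and 45.8 in wild-type at 25 °C. At 20 °C it was at 103.0, 95.8 and 94.0 in mutants and 35, 47.6 and 40.2 in wild-type. The strains overlapped at 25 °C and lay far apart at 20 °C, with log2 differences of -0.03 and 1.26 and an interaction of -1.29 (SE 0.147, limma, adjusted p = 1.87e-08).

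F55C9.3 showed the same form, with 32.5, 25.1, 29.4 and 33.3 rescaled rpm in mutants and 34.8, 30.0, 26.9 and 29.6 in wild-type at 25 °C, and 34.7, 34.7 and 34.1 in mutants and 11.2, 15.9 and 17.8 in wild-type at 20 °C. Here the 20 °C wild-type libraries were the low ones (interaction -1.24, limma, adjusted p = 1.56e-06). T16A1.9 averaged 36.1 ± 5.46 rescaled rpm in mutants and 45.8 ± 3.97 in wild-type at 25 °C (SD, n = 4 each), and 48.8 ± 6.20 in mutants and 25.9 ± 5.04 in wild-type at 20 °C (SD, n = 3 each), an interaction of -1.27 (limma, adjusted p = 5.21e-07). The most abundant ERGO locus, Y17D7C.3, averaged 224 ± 30.0 rescaled rpm in mutants and 294 ± 16 in wild-type at 25 °C, and 325 ± 13.5 in mutants and 223 ± 21.7 in wild-type at 20 °C (interaction -0.95, limma, adjusted p = 4.17e-07). On rescaled rpm its strains did not overlap at either temperature and were in opposite order, which depends on the size factors. With size factors from the CSR class Y17D7C.3 (-0.23, limma, adjusted p = 0.301), T16A1.9 (-0.56, 0.0579) and F55C9.3 (-0.53, 0.0716) did not pass. Y116F11A.1 still did (-0.575, limma, adjusted p = 0.0192).

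In the WAGO class the 3 largest negative interactions by the same rule belonged to genes that also have ERGO-class 26G siRNAs. F39E9.7 (chromosome II, 3306144 to 3307505) had 5.48, 4.16, 4.53 and 5.90 rescaled rpm of 22G siRNAs in mutants and 10.6, 9.66, 7.65 and 9.31 in wild-type at 25 °C. At 20 °C it had 5.40, 5.67 and 4.77 in mutants and 1.39, 1.96 and 2.53 in wild-type. Every wild-type library was above every mutant library at 25 °C and below at 20 °C (interaction -2.30, SE 0.263, limma, adjusted p = 2.26e-08). E01G4.5 had log2 differences of -0.96 at 25 °C and 0.87 at 20 °C (interaction -1.83, limma, adjusted p = 8.64e-08), and Y17D7C.3 of -0.54 and 0.99 (interaction -1.53, limma, adjusted p = 1.38e-08). The most abundant WAGO locus, Y52B11A.18, had 60.9 ± 2.57 rescaled rpm in mutants and 62.7 ± 3.77 in wild-type at 25 °C, and 79.2 ± 5.73 in mutants and 90.3 ± 9.74 in wild-type at 20 °C. Its interaction of 0.15 did not pass (limma, adjusted p = 0.382), but it did on rpm as deposited (0.37, adjusted p = 0.0484) and with size factors from miRNAs (0.45, adjusted p = 0.0228) or the CSR class (0.86, adjusted p = 0.000119), and it was -0.29 with the piRNA total (limma).

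Of 79 genes listed in both the ERGO and WAGO classes, 19 were tested in both. Their median interaction was -0.79 for 26G and -1.19 for 22G siRNAs, with 15 and 13 more negative calls and no more positive one. Across these 19 genes, which are not independent replicates, Pearson's r between both interactions was 0.551, in the same libraries. The 284 tested WAGO features of other genes had 5 more positive and 18 more negative calls and a median of -0.12. A pair of the 79 genes has identical values in both classes. The 26 genes listed in both CSR and WAGO classes, among them prde-1, all have identical values in both and are the same reads listed again.

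There are 292 genes with both ALG-class 26G and CSR-class 22G siRNAs, too few of which were tested in both classes to describe the group. The 3 that were are lin-61, ubc-7 and B0303.3, with 26G interactions of 1.01, 1.74 and 1.34, all of which passed. Their 22G interactions were -0.945, -0.22 and -0.08, of which only that of lin-61 passed (limma, adjusted p = 1.06e-02, against 0.638 and 0.792). lin-61 encodes a chromatin protein that binds methylated histones. The 248 CSR features tested among the 292 genes had 102 more negative calls and a median of -0.58, beside 1103 calls and a median of -0.71 in 2247 other CSR features.

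CSR-class features shifted together. The interaction had a median of -0.70, with 10% of features below -1.18 and 10% above -0.22. In bins of mean abundance the medians were -0.70 (under 2 rescaled rpm), -0.69 (from 2 to 5), -0.71 (from 5 to 20), -0.72 (from 20 to 100) and -0.485 (above 100, 3 features). Over the chromosomes they were from -0.67 on IV and X to -0.74 on V among 13 to 591 tested features a chromosome. The most abundant CSR feature, klp-7, which encodes a microtubule-depolymerizing kinesin, was at 86.3 ± 3.5 rescaled rpm in mutants and 140 ± 7.95 in wild-type at 25 °C (SD, n = 4 each), and 115 ± 9.61 in mutants and 134 ± 18.9 in wild-type at 20 °C (SD, n = 3 each), an interaction of -0.48 (limma, adjusted p = 0.00346). It did not pass on rpm as deposited (-0.26).

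The largest negative interaction by rule was that of fzo-1, the mitofusin gene. Its 22G siRNAs were at 2.64, 2.83, 3.34 and 4.06 rescaled rpm in mutants and 8.75, 7.78, 10.7 and 10.4 in 25 °C wild-type. At 20 °C they were at 5.55, 4.48 and 5.71 in mutants and 5.49, 5.47 and 4.55 in wild-type. The strains were level at 20 °C and clear of each other at 25 °C (interaction -1.54, SE 0.248, limma, adjusted p = 1.15e-05). F45F2.10 (-1.42) and mdf-1 (-1.40), whose product acts in the spindle checkpoint, followed. With size factors from the CSR class, these 3 still passed (-0.84, -0.71 and -0.69). Under that scaling, with 43.3% of all features more positive and 1.64% more negative, 84 CSR features were more positive and 59 more negative, a balance that this scaling sets by centring the class at about 0.

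Of the small RNA pathway genes, which include Argonautes, polymerases and helicases, 46 CSR-class features were tested. None was more positive and 31 (67.4%) were more negative at 25 °C, with a median of -0.79, beside 1205 of 2495 (48.3%) and -0.70 in the whole class. The share called in the class rose with abundance. It was 178 of 664 features under 2 rescaled rpm, 455 of 1063 from 2 to 5, 480 of 670 from 5 to 20 and 89 of 95 from 20 to 100. 22G siRNAs of csr-1 itself were at 15.6, 16.9, 14.5 and 20.3 rescaled rpm in mutants and 33.5, 31.6, 31.3 and 34.4 in 25 °C wild-type. At 20 °C they were at 27.0, 23.2 and 31.1 in mutants and 32.8, 25.5 and 28.8 in wild-type. The strains overlapped at 20 °C and not at 25 °C (interaction -0.86, limma, adjusted p = 0.000165).

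Genes of the polymerases and their partners were alike in direction. ego-1, which encodes the polymerase that makes CSR-class 22G siRNAs, had an interaction of -0.95, and drh-3, a helicase that works with it, had -0.98. rrf-3, the polymerase of 26G siRNAs, had -0.81. Among the Argonaute genes, ergo-1 had -1.24, rde-1 -1.21, ppw-2 -0.86, hrde-1 -0.79, wago-1 -0.79 and wago-4 -0.67, which passed, as did alg-2 (-1.27), alg-5 (-0.97) and prg-2 (-0.56). wago-1 did not pass without the second wild-type library of 20 °C (-0.53), and alg-5 and prg-2 did not pass in 6 and 7 of the 14 fits that left out a library. The Argonaute genes ppw-1 (-0.39, limma, adjusted p = 0.171) and sago-2 (-0.38, 0.22), and wago-2 in the WAGO class (-0.65, 0.0839), did not pass. mut-7, which encodes an exonuclease of the mutator complex, had -1.31, mut-14 -1.01 and mut-16 -0.75. mut-7 was at 9.66 ± 1.06 rescaled rpm in mutants and 18.2 ± 1.61 in wild-type at 25 °C, and 11.3 ± 1.96 in mutants and 8.53 ± 1.1 in wild-type at 20 °C. With the CSR-class size factors mut-7 was the only CSR-class feature of the pathway list that passed (-0.60, limma, adjusted p = 0.0144). csr-1 (-0.15), ego-1 (-0.24) and the other genes named here did not.

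Among genes that act on piRNAs, prde-1 (-1.58), snpc-4 (-1.05) and tofu-4 (-0.88), which act in piRNA transcription, passed, and tofu-5 (-0.02) and tofu-6 (-0.47) did not. tofu-7 (-0.91) passed but lost its call in 10 of the 14 fits that left out a library. parn-1, which trims piRNA 3′ ends, is a WAGO-class feature and had 0.09, which did not pass. Of the miRNA machinery, drsh-1, which encodes the partner of PASH-1, had -0.54 and dcr-1 had -0.60, and neither passed (limma, adjusted p = 0.306 and 0.0767). dcr-1 passed with libraries scaled to the piRNA total (-1.03, limma, adjusted p = 0.00268) and without the first mutant library of 25 °C (-0.71, limma, adjusted p = 0.0445), and was 0.10 with CSR-class size factors. In the WAGO class 1 of 6 pathway features passed, which was prde-1 listed again.

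The other lists are given beside their classes. More negative calls made up 48.3% of tested CSR, 51.1% of tested ERGO and 10.1% of tested WAGO features, and 22.5% of all features. Among CSR-class features the share was 68.1% for oogenesis and germ granule genes (32 of 47, median -0.74), 66.7% for meiosis genes (22 of 33, median -0.86), 62.1% for nuclear pore genes (18 of 29, median -0.77) and 35.3% for heat shock genes (6 of 17, median -0.58), and none was more positive. Of the known ERGO-1 target examples, 7 of 12 ERGO-class features (58.3%, median -0.57) and 3 of 8 WAGO-class features (37.5%, median -0.06) were more negative. No difference between a list and its class was tested, and lists were not matched to their class for abundance, with which the share called in the CSR class rose. F-box and BATH/MATH genes had 9 tested WAGO-class features, of which 1, fbxb-97, was more positive (median -0.14). Histone genes had 3 of 4 CSR-class features more negative and 1 of 1 ALG-class feature more positive. Nuclear hormone receptor genes had 1 of 4 and C-type lectin genes 1 of 2 CSR-class features more negative, and no chemoreceptor feature reached the filter.

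piRNAs shifted together too, the other way. Of the 3133 tested, 3131 are on chromosome IV, as are all 900 more positive and 9 more negative ones. The median interaction was 0.41 under 2 rescaled rpm, 0.40 from 2 to 5, 0.38 from 5 to 20, 0.38 from 20 to 100 and 0.40 above 100. Along chromosome IV it was 0.35 between 4 and 6 Mb, 0.41 between 6 and 8 Mb, 0.45 between 12 and 14 Mb, 0.38 between 14 and 16 Mb and 0.41 between 16 and 18 Mb, with 5 tested piRNAs between 8 and 10 Mb.

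The largest changes by rule stood above this shift. 21ur-6881, an abundant piRNA (chromosome IV, 16374700 to 16374720), was at 254, 312, 308 and 309 rescaled rpm in mutants and 118, 134, 137 and 111 in wild-type at 25 °C. At 20 °C it was at 156, 172 and 147 in mutants and 196, 179 and 151 in wild-type. The mutants were clear of wild-type at 25 °C and overlapped it at 20 °C (interaction 1.39, SE 0.134, limma, adjusted p = 5.11e-10). 21ur-8083 (1.52) and 21ur-1806 (1.49) had larger interactions at lower levels. All 3 still passed when libraries were scaled to their piRNA total (0.95, 1.08 and 1.06).

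Only 9 piRNAs were more negative. Of these 21ur-3956 was at 8.15, 8.49, 8.91 and 5.78 rescaled rpm in mutants and 13, 16.7, 12 and 14.9 in wild-type at 25 °C, and at 20.0, 21.5 and 21.3 in mutants and 20.9, 20.9 and 27.7 in wild-type at 20 °C. It was low in mutants at 25 °C alone (interaction -0.72, limma, adjusted p = 0.0051). 21ur-3992 had -0.80 and did not pass without the first wild-type library of 20 °C (-0.57, limma, adjusted p = 0.0539). 21ur-4505 had -0.65 (limma, adjusted p = 0.0356) and did not pass in 7 of the 14 fits that left out a library, with -0.42 at the smallest. On rpm as deposited no piRNA passed as more negative, and 21ur-3956 had -0.50 (limma, adjusted p = 0.0911). The most abundant piRNA, 21ur-3421, averaged 1060 rescaled rpm in both strains at 25 °C, and 1690 ± 53.9 in mutants and 2150 ± 164 in wild-type at 20 °C (interaction 0.34, limma, adjusted p = 0.0217). It did not pass without the first mutant or second wild-type library of 20 °C or the first wild-type library of 25 °C, and it was -0.10 with libraries scaled to the piRNA total. 21ur-1 is listed at 0 in all 14 libraries.

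**Figure D4:**
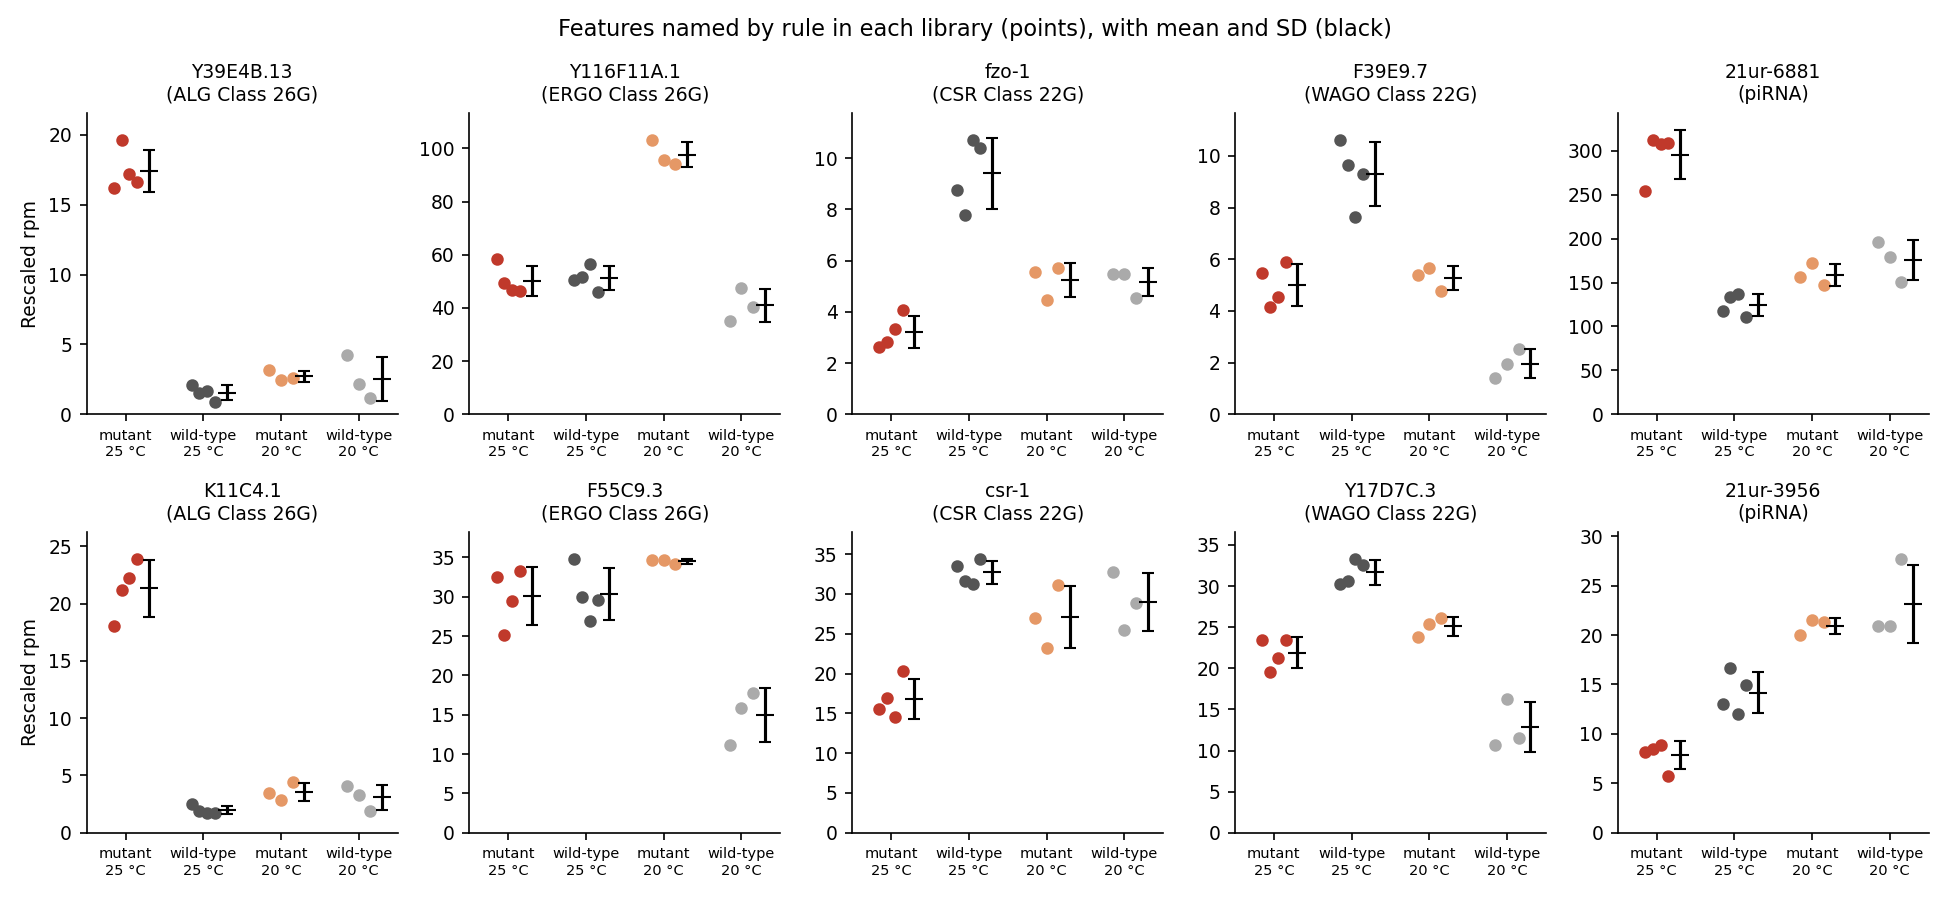
Rescaled rpm of 10 features by strain and temperature, with libraries as points and means with SD in black (n = 4 at 25 °C, n = 3 at 20 °C). Y39E4B.13 and K11C4.1 were high in 25 °C mutants only, Y116F11A.1 was high in 20 °C mutants, and fzo-1 and csr-1 were low in 25 °C mutants.

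The order of the class medians, ALG, piRNA, WAGO, ERGO and CSR from high to low, was the same under all 29 settings, which include each library left out. Several of these could not change it. A scaling moves all features by nearly the same amount, and the eBayes, adjustment and block settings leave medians as they are. Other filters, pseudocounts and libraries left out could change the order. The zero changed with the scaling. The median of all features was 0.615 with size factors from the CSR class, -0.50 with libraries scaled to the piRNA total, 0.21 with size factors from miRNAs and 0.14 on rpm as deposited. The more positive share of all calls was 40.8% with the size factors used here, 96.3% with those from the CSR class and 8.03% with the piRNA total, where 3.55% of all features were more positive and 40.7% more negative. Relative to the median of all features, the class medians were 2.16 for ALG, 0.47 for piRNAs, -0.07 for WAGO, -0.51 for ERGO and -0.62 for CSR. Over 12 settings on the same features these were 1.61 to 2.23, 0.37 to 0.48, -0.08 to -0.05, -0.52 to -0.40 and -0.64 to -0.48. Scalings could hardly move these values either.

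**Figure D5:**
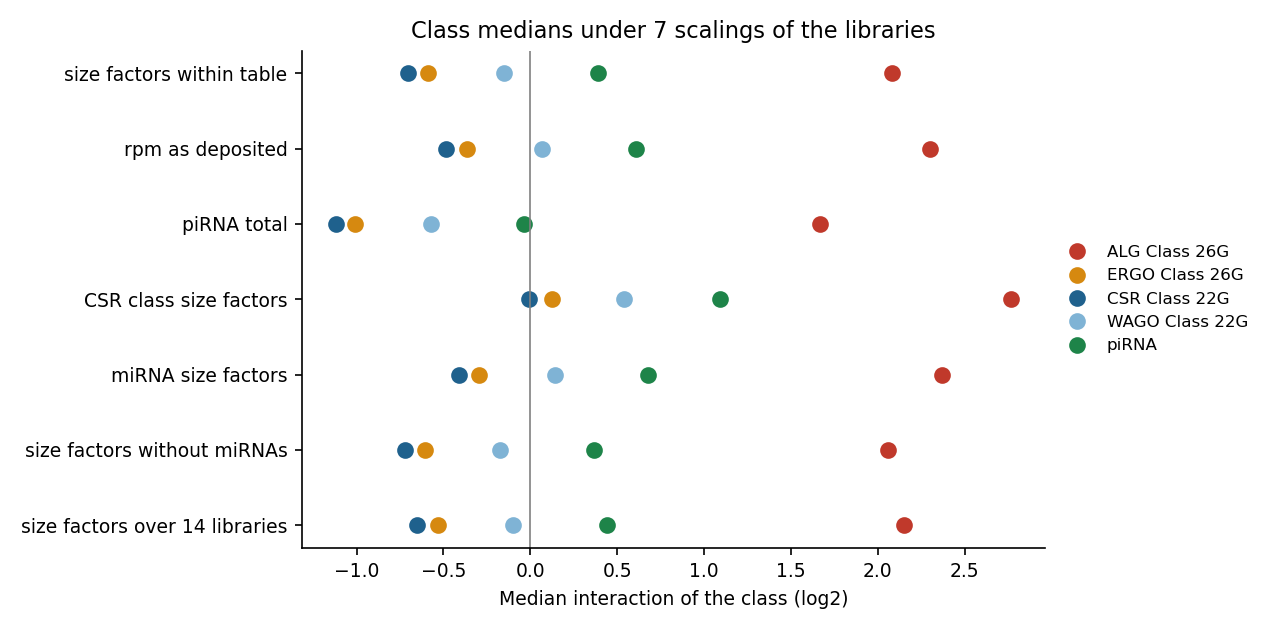
Median interaction of each class (log2, horizontal axis) under 7 scalings of the libraries. ALG medians were positive in each. The order of the classes was the same, as a scaling moves all features by nearly the same amount. The CSR median lay at -0.70 with size factors within each table and at about 0 with size factors from the CSR class.

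Marker miRNAs of embryos had interactions as well. The 8 miRNAs miR-35 to miR-42 (3p), which are made in embryos and oocytes, had sums of 58330 to 69870 rpm in 25 °C mutants, 191300 to 214900 in 25 °C wild-type, 90250 to 102400 in 20 °C mutants and 168200 to 187100 in 20 °C wild-type. All 8 had a more negative difference at 25 °C. They are also products of the Microprocessor, so fewer embryos and less processing cannot be told apart in them. Of the other marker miRNAs, let-7-5p had a more negative (-0.52, limma, adjusted p = 2.98e-04) and miR-48-5p (0.31, 0.0269) and miR-84-5p (0.31, 0.0247) a more positive difference. lin-4-5p (0.27), miR-241-5p (0.08), miR-1-3p of muscle (-0.19) and miR-124-3p of neurons (0.40) did not pass. The part of these miRNAs, or of embryo content, in the interactions of the 5 classes was not tested.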

How the data were processed

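Small RNA libraries of total RNA were made with a NEBNext kit. The authors trimmed and filtered reads with fastp, aligned them with bowtie to the WS279 genome and assigned them to features in tinyRNA with its default configuration. The deposited values are rpm, normalized by the authors for each temperature in a table of its own. The class column of the 20 °C table, shifted by 1 line, was moved back, after which all 23869 classes matched. Low values under 0.5 rpm were whole reads (within 0.006 rpm) in 90.3% to 92.1% of cases, too few for a test on counts, and the steps gave 16400000 to 23400000 reads a library. Feature IDs were matched to the WBcel235 annotation (22489 of 22708 members), which gave positions.

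Values were divided by median-of-ratios size factors within each table, 0.1 was added, and log2 values were fitted with lmFit and eBayes (trend, robust) of limma 3.58.1 (R 4.3.3), with a strain by temperature term over 14 libraries. This rescaling moved them; rpm as deposited lie 0.57 higher at 25 °C and 0.36 higher at 20 °C in median log2 difference. The named features were, in each class, the most abundant one and the 3 largest interactions in each direction past the threshold with a mean of at least 5 rescaled rpm and no overlap of the strains at 1 temperature, and the small RNA pathway genes. Class values were tested in Python 3.11.15 by permuting the residuals of an additive model within strain (1225 assignments, two-sided), an approximate test. Both fits were tested on simulated data. Members and gene lists were chosen with earlier results of these data known. No replicates were repeats of one another (median chi-square 1.12 to 2.31 per feature, against 0.455 for sampling noise). The labels name no separate cultures, so p-values measure the spread between libraries. The alternatives were other pseudocounts, filters, scalings, eBayes options and adjustment, the replicate number as a block, and each library left out.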

Additional observations from a re-analysis of the deposited data

Results flagged for a closer look

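Class-level values differed between the temperatures by their own permutation test. The log2 interactions of class shares were 1.901 for ALG, -0.891 for ERGO, -0.9009 for CSR, -0.3628 for WAGO and 0.2324 for piRNA. Those of class ratios were 2.792 for ALG to ERGO, 2.802 for ALG to CSR, 2.264 for ALG to WAGO, 1.669 for ALG to piRNA, -0.5282 for ERGO to WAGO, -1.123 for ERGO to piRNA, -0.5381 for CSR to WAGO, -1.133 for CSR to piRNA and -0.5951 for WAGO to piRNA. The number of features at or above 1 rpm had interactions of 436.1 for ALG, -351 for CSR and 516.4 for piRNA. The share of the 10 most abundant features had interactions of -10.73 for ALG, -3.474 for ERGO and 0.2997 percentage points for CSR.

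Single features differed between the temperatures by the limma interaction term. For 26G siRNAs the log2 interactions were -0.60 for Y57G11C.36, 3.19 for Y39E4B.13, 3.13 for K11C4.1 and 2.68 for ZK666.8 in the ALG class, and -0.948 for Y17D7C.3, -1.29 for Y116F11A.1, -1.27 for T16A1.9 and -1.24 for F55C9.3 in the ERGO class. For 22G siRNAs they were -0.485 for klp-7, -1.54 for fzo-1, -1.42 for F45F2.10 and -1.40 for mdf-1 in the CSR class, and -2.30 for F39E9.7, -1.83 for E01G4.5 and -1.53 for Y17D7C.3 in the WAGO class. For piRNAs they were 0.336 for 21ur-3421, 1.52 for 21ur-8083, 1.49 for 21ur-1806, 1.39 for 21ur-6881, -0.797 for 21ur-3992, -0.721 for 21ur-3956 and -0.645 for 21ur-4505.

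Among 22G siRNAs of small RNA pathway genes the log2 interactions were -1.58 for prde-1 in both its listings, -1.53 for eri-1, -1.31 for mut-7, -1.27 for alg-2, -1.24 for ergo-1, -1.21 for rde-1 and -1.18 for drh-1. They were -1.05 for snpc-4 and nrde-4, -1.01 for mut-14, -0.981 for drh-3, -0.972 for alg-5, -0.954 for ego-1, -0.936 for rde-12, -0.914 for tofu-7, -0.876 for pid-5, -0.875 for tofu-4, -0.864 for csr-1 and -0.862 for ppw-2. They were -0.853 for znfx-1, -0.845 for rde-2, -0.813 for rrf-3, -0.794 for hrde-1, -0.792 for wago-1, -0.751 for mut-16, -0.735 for deps-1, -0.689 for pid-2, -0.672 for wago-4, -0.562 for cgh-1, -0.556 for prg-2 and -0.532 for xrn-2. Of these, tofu-7 did not pass in 10, prg-2 in 7, alg-5 in 6, nrde-4 in 4, cgh-1 and xrn-2 in 2 and rde-2 and wago-1 in 1 of the 14 fits that left out a library.

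In 8 of 86 groups of 4 libraries 1 library lay far from the other 3, where chance gives about 5% of groups. Among 25 °C mutants these were the CSR sum of 14623 rpm in replicate 2, the share of 6.009% of the 10 most abundant CSR features in replicate 4, and, in replicate 1, T16A1.9 at 44.3 and 21ur-6881 at 254 rescaled rpm. Among 25 °C wild-type libraries they were the 44 ERGO features at or above 1 rpm in replicate 3, the share of 23.69% of the 10 most abundant ALG features in replicate 1, the 22G siRNAs of E01G4.5 at 17.9 rescaled rpm in replicate 1, and 21ur-3992 at 12.3 rescaled rpm in replicate 3.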

How the results depend on the processing

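Scaling set the counts of calls. Of all members 956 were more positive and 1269 more negative. With the piRNA total these were 219 and 2358, with CSR-class size factors 2636 and 71, and with miRNA size factors 1625 and 511. More negative calls were 684 on rpm as deposited and 597 at a mean of at least 5 rpm. By class, more positive ALG calls were 509 without a filter, 273 with 1 rpm in at least 1 table (a filter passed through the 25 °C mutants) and 3 at 5 rpm, and more negative ones 0 with CSR-class or miRNA size factors. ERGO more positive calls were 1 without a filter or with 1 rpm in at least 1 table and 4 with CSR-class size factors, and more negative ones 39 (piRNA total), 3 (CSR class) and 15 (miRNAs). CSR more positive calls were 1 on rpm as deposited and with miRNAs and 84 with the CSR class. CSR more negative calls were 569 (5 rpm), 647 (deposited), 2002 (piRNA total), 59 (CSR class) and 479 (miRNAs). WAGO more positive calls were 11 (no filter), 10 (1 rpm in at least 1 table), 0 (5 rpm), 12 (deposited), 2 (piRNA total, and adjusted within the class), 87 (CSR class) and 14 (miRNAs). WAGO more negative calls were 5 (5 rpm), 20 (deposited), 96 (piRNA total), 9 (CSR class), 17 (miRNAs) and 19 (adjusted within the class). piRNA more positive calls were 171 (piRNA total), 2406 (CSR class) and 1557 (miRNAs), and more negative ones 16 (no filter), 3 (5 rpm), 220 (piRNA total), 5 (plain eBayes) and 0 (deposited, CSR class, miRNAs).

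With CSR-class size factors the sign turned for Y57G11C.36 (0.118), klp-7 (0.234), 21ur-4505 (0.0568), cgh-1 (0.15), dcr-1 (0.104), lin-41 (0.279), nhl-2 (0.223), ppw-1 (0.318), prg-2 (0.157), rsd-6 (0.00239), sid-1 (0.681), xrn-2 (0.184), drsh-1 (0.135), wago-4 (0.0465), hrde-2 (0.345), tofu-5 (0.663), hpo-40 (0.214), ain-2 (0.272), eri-6 (0.365), tofu-6 (0.211), pid-1 (0.0851), wago-2 (0.0488), sago-2 (0.325), pid-4 (0.30), pid-3 (0.15) and pid-2 (0.0289). So did the medians of ERGO (0.124, and 0.631 at 25 °C), CSR (0.00421 at 25 °C and 0.00454 at 20 °C), WAGO (0.538, and 0.465 at 25 °C), F-box WAGO (0.555), heat shock CSR (0.0904) and the ERGO-1 examples (0.129 in ERGO, 0.622 in WAGO). With the piRNA total it turned for Y52B11A.18 (-0.29), 21ur-3421 (-0.10), parn-1 (-0.335), rde-11 (-0.194) and the piRNA median (-0.0354). On rpm as deposited it turned for sid-1 (0.202), tofu-5 (0.193) and the medians of ERGO at 25 °C (0.343), CSR at 20 °C (0.205), WAGO (0.0689, with 0.189 at 25 °C and 0.134 at 20 °C), F-box WAGO (0.0807) and ERGO-1 examples in WAGO (0.156). With miRNA size factors these were 0.275, 0.265, 0.529, 0.313, 0.142, 0.368, 0.243, 0.155 and 0.229. With size factors over 14 libraries sid-1 had 0.0335 and tofu-5 0.0276, and with 1 rpm in at least 1 table the ERGO-1 examples in WAGO had 0.194. The cause was not tested beyond the scalings themselves.

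The WAGO share turned to 0.1273 over all listed features, its number of features to -16.92 at 0.5 rpm and the ERGO number to -0.75 at 5 rpm. The share of the 50 most abundant features did not pass for ERGO (-0.1725) and CSR (0.04266). Deviations of same-numbered libraries had correlations of -0.159 to 0.107. With so few libraries a group, these cannot show whether same-numbered libraries were grown or prepared together. With the replicate block the 10-feature shares of ALG (-10.73), ERGO (-3.474) and CSR (0.2997) did not pass, in a test that cannot give less than 0.029 before adjustment, and WAGO more positive calls were 3. Leaving out a library gave ERGO to CSR ratios of -0.0684 to 0.1504, ERGO numbers of -0.4167 to 0.6667, WAGO 10-feature shares of -0.4988 to 0.1741, 2 to 8 WAGO more positive calls and 4 to 27 piRNA more negative calls (27 without the third 20 °C wild-type library). It gave -0.228 to 0.129 for sid-1, -0.11 to 0.315 for parn-1, -0.207 to 0.164 for tofu-5, -0.042 to 0.378 for rde-11, and medians of -0.266 to 0.106 for F-box WAGO and -0.224 to 0.0117 for ERGO-1 examples in WAGO. Of 518 class-level values and counts from fits that left out a library, 495 kept direction and call, 13 changed sign or became 0 and 10 moved by over 1.5 times.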

Other observations

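The largest interaction of any tested piRNA lay below the abundance set for named features and was chosen after its values were seen. 21ur-6420 averaged 6.25 rescaled rpm in mutants and 0.643 in wild-type at 25 °C, and 1.51 in mutants and 1.57 in wild-type at 20 °C (interaction 3.23, limma, adjusted p = 2.64e-08).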
